A study of Mus musculus with 8 samples.

Results

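The genes described are 9 transcription factors that establish and keep T cell identity, chosen by name: Tcf7, Lef1, Bcl11b, Bach2, Ets1, Myb, Ikzf1, Ikzf3 and Fli1. They are 9 of the 47937 genes in the deposited table of read counts, and each had enough counts to be tested. RNA was sequenced from mature CD8 single-positive thymocytes (CD8SP), sorted as TCRβ+ cells with high MHC class I, from 4 control mice (Ndrg3ctrl, Ndrg3 +/fl;Lck-cre+) and 4 knockout mice (Ndrg3TKO, Ndrg3 fl/fl;Lck-cre+) labelled as 6 to 7 weeks old. Both groups therefore carried the Lck-cre transgene, in which the proximal Lck promoter drives Cre recombinase in thymocytes, and they differed in having 1 or 2 floxed Ndrg3 alleles. No group without Cre or without a floxed allele was analysed here, and the labels name no sex. The comparison asks whether RNA of these factors differed when Ndrg3, a member of the N-myc downregulated gene family, was deleted in T cells.

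These factors act at successive steps of T cell life. TCF1 (encoded by Tcf7) and LEF1 are related HMG-box proteins that bind DNA and can pair with β-catenin or Groucho co-repressors, and they are required for T cell specification and for CD8 lineage choice. BCL11B is the zinc finger factor that commits progenitors to the T lineage, BACH2 represses effector genes in naive cells, ETS1 and FLI1 bind through the ETS domain, MYB acts in double-negative and double-positive thymocytes, and IKAROS (Ikzf1) and AIOLOS (Ikzf3) recruit chromatin remodelling complexes.

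None of the 9 factors passed the test between Ndrg3TKO and Ndrg3ctrl. Over all tested genes 1.15% passed, 0.793% higher and 0.355% lower in Ndrg3TKO, so that a count of 0 in 9 lies near the background. At an unadjusted p under 0.05 stood 1 of the 9, Myb, beside 10.9% of all tested genes, and DESeq2, which called 1.92% of its genes, and limma-voom also called 0 of the 9. The 8 factors other than Myb had 95% intervals of the log2 fold change that lay between −0.22 and 0.23. Myb was the factor with the largest difference, 1.17-fold higher in Ndrg3TKO, and it did not pass after adjustment over all genes. Counts were compared with the quasi-likelihood F test of edgeR, p-values were adjusted by Benjamini-Hochberg over 14633 tested genes, a gene with an adjusted p under 0.05 is said to be called, and fold changes are of Ndrg3TKO relative to Ndrg3ctrl throughout.

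Total counts per library ran from 21126698 to 32668081. Values per library are normalized counts, that is, counts brought by TMM factors to a library of mean size, and they are given for replicates 1, 2, 3 and 4 in that order. Ndrg3 itself was at 2294, 2359, 2349 and 2342 in Ndrg3ctrl and at 1460, 1402, 1537 and 1601 in Ndrg3TKO, a log2 fold change of −0.64 (edgeR, adjusted p = 1.04e-05). All 4 Ndrg3TKO libraries lay below all 4 Ndrg3ctrl libraries, and reads over exons that were not floxed are still counted in this gene. The 8 CD8 T cell markers were all tested, with none called and a median log2 fold change of −0.0028, and the most abundant of them for CD8, Cd8a, was at 39568 ± 554 (SD, n = 4) and 39110 ± 971 (SD, n = 4). Y-linked genes were counted in Ndrg3ctrl replicate 2 and in Ndrg3TKO replicates 2 and 3, at 340.5 to 416 CPM (counts scaled to the library total), and at most 0.0752 CPM in the other 5 libraries. Values within each of these classes of library are given where they bear on a result. In bulk RNA, fewer cells that express a gene and less of its RNA per cell cannot be told apart.

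Of the related pairs, the stretches that could take reads from either gene were short. The longest identical stretch that a script found between coding sequences of GENCODE M21 transcripts is shown for each pair, because it bears on how cleanly a read can be given to one gene.
Tcf7 and Lef1: atcaaccagatcctggg
Ikzf1 and Ikzf3: gatccctttgagtgtaacatgtgtgg
Ets1 and Fli1: gatccagctgtggcagtttct
These run for 17, 26 and 21 bases. They lie in the coding sequence from base 652 in Tcf7 and base 979 in Lef1, from base 1189 in Ikzf1 and base 1426 in Ikzf3, and from base 1002 in Ets1 and base 840 in Fli1, each in 1 of that gene's coding transcripts. They fall in the parts that the paralogues share by descent, the HMG box, the zinc fingers at the C-terminal end and the ETS domain.

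Per length, the 9 factors spanned a wide range of levels. Tcf7 was among the most abundant mRNAs of these cells, and Myb was near the middle of the tested genes. Levels were compared as reads scaled to library size and exonic length (RPKM), where the length joins all annotated exons of a gene. This length was 2625 bases for Tcf7 and 8933 bases for Myb. The mean over 8 libraries was 477 RPKM for Tcf7, which ranked 39 among 14568 tested genes with a length. Ets1 followed at 206 and Ikzf1 at 185 RPKM, then Lef1 at 103 and Bcl11b at 100.1 RPKM. Ikzf3 had 55.9, Fli1 51.3, Bach2 34.1 and Myb 8.33 RPKM. Myb stood at rank 6024, against a median of 6.12 RPKM over the tested genes. Ranges over the 8 libraries overlapped between Ets1 and Ikzf1, between Lef1 and Bcl11b and between Ikzf3 and Fli1, and did not overlap between the other neighbours. Within a library, Ets1 was above Ikzf1 in 8 of 8, Ikzf3 above Fli1 in 7 of 8 and Lef1 above Bcl11b in 6 of 8, so only Ets1 and Ikzf1 of these 3 pairs had the same order in every library. Together the 9 factors made up 6515 to 7189 CPM in Ndrg3ctrl and 6761 to 7183 CPM in Ndrg3TKO.

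**Figure D1:**
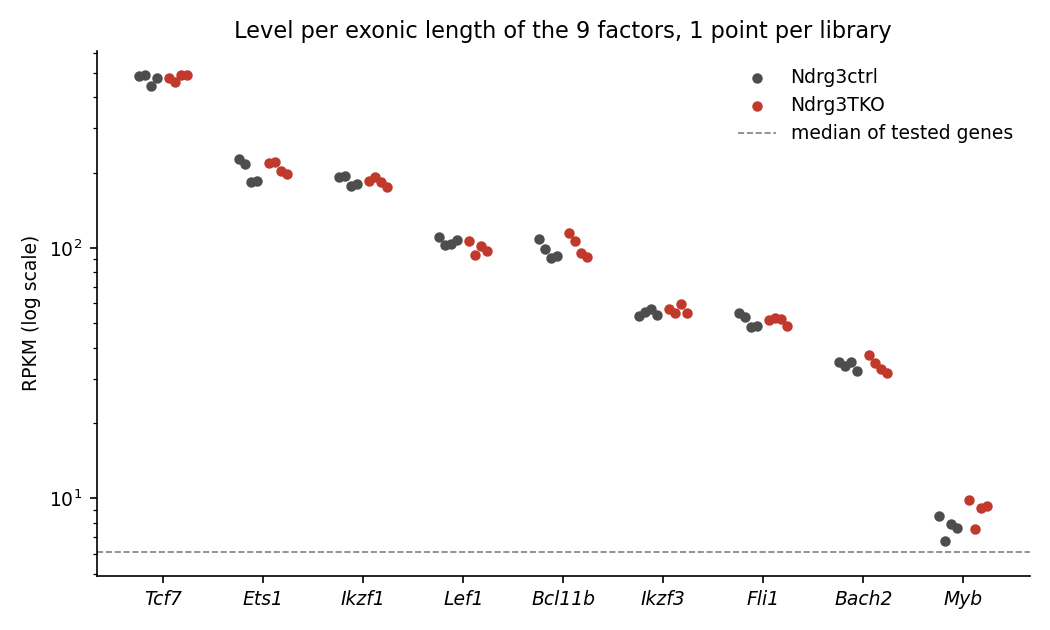
Level of each factor in RPKM on a log scale, with 1 point per library (grey Ndrg3ctrl, red Ndrg3TKO, n = 4 each) and a dashed line at the median of all tested genes, 6.12 RPKM. Tcf7 stands at the top at 442 to 492 RPKM, Myb sits just above the dashed line, and the groups overlap within each gene.

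Tcf7 lies on chromosome 11 of GRCm38 from 52252371 to 52283014 (minus strand, ENSMUSG00000000782). Its normalized counts were 36906, 37382, 33560 and 36349 in Ndrg3ctrl and 36145, 35036, 37288 and 37337 in Ndrg3TKO. The lowest and the highest library were both controls, and the groups overlapped throughout. Its log2 fold change was 0.016 ± 0.0627 (SE), with an adjusted p of 0.955, and its 95% interval runs from −7.88% to 11.0%.

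Lef1, its relative, lies on chromosome 3 from 131110471 to 131224356 (plus strand, ENSMUSG00000027985). It was counted at 28200, 26157, 26363 and 27469 in Ndrg3ctrl and at 27063, 23912, 25900 and 24636 in Ndrg3TKO. Replicate 1 of Ndrg3TKO was among the controls, and the other Ndrg3TKO libraries, 3 of 4, lay below every control. Its log2 fold change was −0.092 ± 0.0619 (SE), with an adjusted p of 0.638 and an interval from −14.4% to 2.86%.

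**Figure D2:**
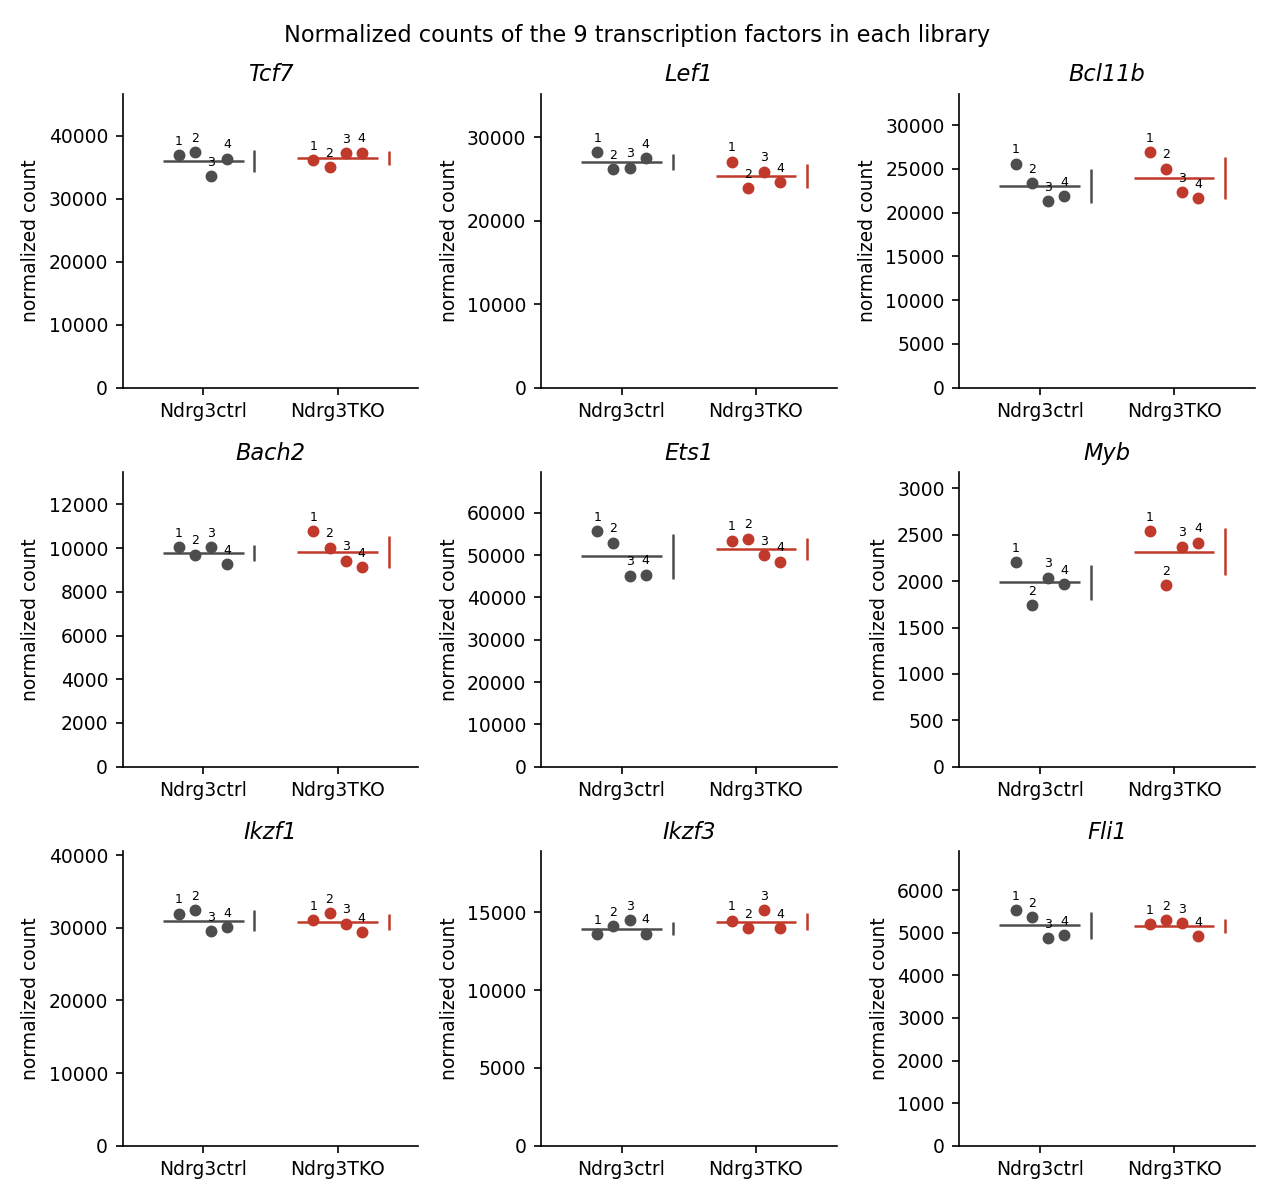
Normalized count of each of the 9 factors by group, with axes from 0 and a number at each point for the replicate. Horizontal lines are means and vertical lines are ± 1 SD (n = 4 libraries per group). The groups overlap in all 9 panels, with the least overlap in Myb and Lef1.

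The ratio of Tcf7 to Lef1 within a library does not depend on how libraries are scaled. Per length it was 4.38, 4.78, 4.26 and 4.43 in Ndrg3ctrl and 4.47, 4.91, 4.82 and 5.07 in Ndrg3TKO. Ndrg3TKO replicate 1 and Ndrg3ctrl replicate 2 overlapped, while the other 3 Ndrg3TKO libraries were above all controls. The difference was 0.11 on the log2 scale (p = 0.0571, 2-sided exact permutation test over 70 splits, adjusted p = 0.171 over the 3 ratios). The smallest p this design allows is 0.0286. Ikzf1 over Ikzf3 was 3.37 ± 0.206 (SD, n = 4) in Ndrg3ctrl and 3.24 ± 0.174 (SD, n = 4) in Ndrg3TKO, with p = 0.4 by the exact test and adjusted p = 0.4. Ets1 over Fli1 was 3.94 ± 0.181 (SD, n = 4) and 4.09 ± 0.132 (SD, n = 4), with p = 0.229 by the exact test and adjusted p = 0.344. None of the 3 ratios passed this test, which takes the libraries as unpaired.

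**Figure D3:**
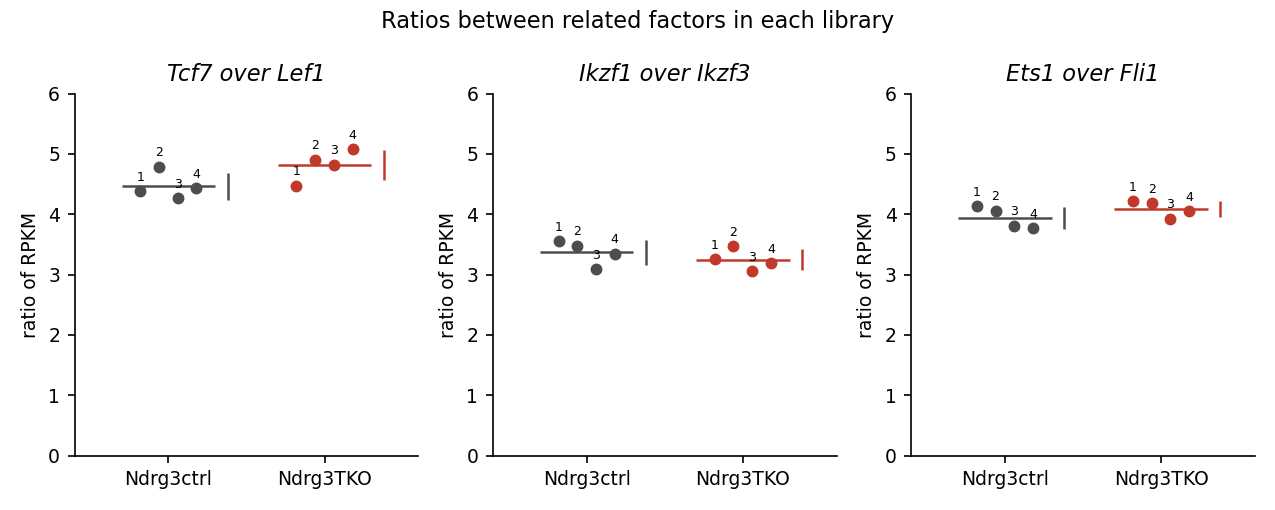
Ratio of RPKM between related factors in each library, by group, with the axis from 0, replicate numbers at the points, means as horizontal lines and ± 1 SD as vertical lines (n = 4 per group). Tcf7 over Lef1 is 4.46 ± 0.225 in Ndrg3ctrl and 4.82 ± 0.254 in Ndrg3TKO, and the groups overlap in all 3 panels.

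Reads on the opposite strand were counted at the start of Lef1 in a separate gene, Gm43352, an antisense RNA at chromosome 3 from 131109026 to 131112090 that shares 1208 exonic bases with Lef1. Gm43352 was at 677, 673, 582 and 608 in Ndrg3ctrl and at 558, 542, 518 and 500.3 in Ndrg3TKO. All 4 Ndrg3TKO libraries lay below all 4 controls, as they did in 3.59% of tested genes, and the log2 fold change was −0.26 ± 0.0766 (SE) with an adjusted p of 0.158. The kit marks strand, but whether counting used it is not stated, so reads of Lef1 and Gm43352 in their shared part may not have been told apart. The 250 bases before the first RefSeq start of Lef1 lie wholly within Gm43352 and are shown for that reason, from chr3:131110047-131110296 (plus strand, GRCm38.p6, RefSeq).
Lef1: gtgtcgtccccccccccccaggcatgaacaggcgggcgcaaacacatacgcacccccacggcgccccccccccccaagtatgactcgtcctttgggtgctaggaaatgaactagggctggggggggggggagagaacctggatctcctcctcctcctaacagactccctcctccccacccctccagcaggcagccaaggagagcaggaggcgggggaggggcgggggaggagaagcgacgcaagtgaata
GENCODE places the start of Lef1 downstream of this RefSeq start.

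Myb lies on chromosome 10 from 21124935 to 21160984 (minus strand, ENSMUSG00000019982). Its normalized counts were 2205, 1743, 2036 and 1967 in Ndrg3ctrl and 2537, 1956, 2369 and 2415 in Ndrg3TKO. Ndrg3TKO replicate 2 fell within the control range, and the other 3 were above every control. Means were 1988 ± 191 (SD, n = 4) and 2319 ± 252 (SD, n = 4), a log2 fold change of 0.22 (standard error 0.084), that is 1.17-fold with a 95% interval from 1.03 to 1.32. The unadjusted p was 0.0209, which ranked 899 among all tested genes, of which 10.9% were under 0.05, and the adjusted p was 0.34.

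The replicate 2 library of each group had the lowest Myb count of its group, and both held Y-linked counts. Among libraries without Y-linked counts (3 Ndrg3ctrl, 2 Ndrg3TKO) the log2 difference in Myb was 0.26, and among those with them (1 Ndrg3ctrl, 2 Ndrg3TKO) it was 0.304. With Y-linked counts as a covariate, Myb passed the threshold (log2 fold change 0.28, adjusted p = 0.0286) in a fit that called 2.99% of all genes, and it passed in 1 other fit that called 5.47%, given among the alternatives at the end. Over 9 other settings the adjusted p ran from 0.00373 to 0.379, so the call for Myb rests on the design that is fitted. Without Ndrg3ctrl replicate 2 the log2 fold change was 0.16 and without Ndrg3TKO replicate 2 it was 0.29, and neither passed.

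The 250 bases before the start of Myb, the factor with the largest difference, are from chr10:21160985-21161234 (minus strand, GRCm38.p6, RefSeq). Promoters were found for 6 of the 9 factors in the RefSeq table, and not for Ets1, Ikzf3 and Fli1. Capitals mark GGCGGGA, a form of the E2F motif.
Myb: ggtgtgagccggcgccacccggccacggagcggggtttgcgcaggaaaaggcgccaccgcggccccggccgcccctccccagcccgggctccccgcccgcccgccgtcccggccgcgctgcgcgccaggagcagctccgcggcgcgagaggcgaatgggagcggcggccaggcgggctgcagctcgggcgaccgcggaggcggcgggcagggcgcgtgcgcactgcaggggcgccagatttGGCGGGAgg
The match starts 9 bases before the start site. GGCGGGA was searched on both strands, after the sequence had been seen, and stands in 9.75% of the 32817 mouse promoters of this length. CTTTGA for TCF1 or LEF1, AACTG for MYB, CCGGAA for ETS factors, TGGGAA for IKAROS and TGTGGT for RUNX had no match on either strand in the window of Myb or of Lef1, while 13.8%, 39.1%, 12.0%, 21.6% and 14.0% of all promoters hold them. G and C made up 81.2% of the Myb window and 66.4% of the Lef1 window, against a median of 52.4% over all promoters.

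Genes whose pattern over the 8 libraries was most like that of Myb were Gprin3, Lztfl1 and Braf. The root mean square difference of their centred log2 counts from those of Myb was 0.0510, 0.0532 and 0.0569, against a median of 0.205 over 8935 genes of at least 10 CPM. Their log2 fold changes were 0.19, 0.25 and 0.24, with adjusted p of 0.384, 0.286 and 0.0951.

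Bcl11b lies on chromosome 12 from 107910403 to 108003602 (minus strand, ENSMUSG00000048251). Normalized counts of Bcl11b were 25588, 23335, 21328 and 21886 in Ndrg3ctrl and 26884, 24992, 22339 and 21637 in Ndrg3TKO. Replicates 1 and 2 were the higher libraries in both groups, and the groups overlapped. Its log2 fold change was 0.057 ± 0.0804 (SE), with an adjusted p of 0.85 and an interval from −7.67% to 17.2%, and without Ndrg3TKO replicate 1 it was −0.0036.

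Bach2 lies on chromosome 4 from 32238804 to 32586108 (plus strand, ENSMUSG00000040270). It was counted at 10048, 9701, 10045 and 9275 in Ndrg3ctrl and at 10768, 10011, 9423 and 9117 in Ndrg3TKO. Both the highest and the lowest library were Ndrg3TKO, whose SD was 727 against 367 in the controls (n = 4 each). Its log2 fold change was 0.0091 ± 0.0587 (SE), with an adjusted p of 0.975 and an interval from −7.77% to 9.81%, and without Ndrg3TKO replicate 1 it was −0.038.

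Ets1 and Fli1 are neighbours on chromosome 9, Fli1 from 32422204 to 32542861 (minus strand, ENSMUSG00000016087) and Ets1 from 32636221 to 32757820 (plus strand, ENSMUSG00000032035), with 93359 bases and 2 annotated genes between them. Ets1 had 55596, 52935, 45118 and 45334 normalized counts in Ndrg3ctrl and 53374, 53823, 49897 and 48452 in Ndrg3TKO. Fli1 had 5530, 5367, 4875 and 4943 in Ndrg3ctrl and 5210, 5295, 5229 and 4920 in Ndrg3TKO. Control replicates 1 and 2 were above control replicates 3 and 4 in both genes, and no Ndrg3TKO library left the range of the controls in either. Log2 fold changes were 0.047 (standard error 0.0812, adjusted p = 0.883) for Ets1 and −0.0042 (standard error 0.0537, adjusted p = 0.988) for Fli1. The interval for Ets1 runs from −8.44% to 16.5% and that for Fli1 from −0.12 to 0.11 on the log2 scale.

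Ikzf1 (chromosome 11 from 11685003 to 11772926, plus strand, ENSMUSG00000018654) and Ikzf3 (chromosome 11 from 98464902 to 98546031, minus strand, ENSMUSG00000018168) encode proteins that can form dimers with each other. Ikzf1 was at 31944, 32409, 29534 and 30059 in Ndrg3ctrl and at 31058, 32036, 30549 and 29361 in Ndrg3TKO. Ikzf3 was at 13606, 14110, 14485 and 13624 in Ndrg3ctrl and at 14453, 13973, 15127 and 13975 in Ndrg3TKO. In each gene 3 of 4 Ndrg3TKO libraries lay within the control range, with replicate 4 just below it for Ikzf1 and replicate 3 above it for Ikzf3. Their log2 fold changes were −0.011 (standard error 0.062, adjusted p = 0.971) and 0.043 (standard error 0.0514, adjusted p = 0.814), with intervals from −9.48% to 8.81% and from −4.52% to 11.2%.

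**Figure D4:**
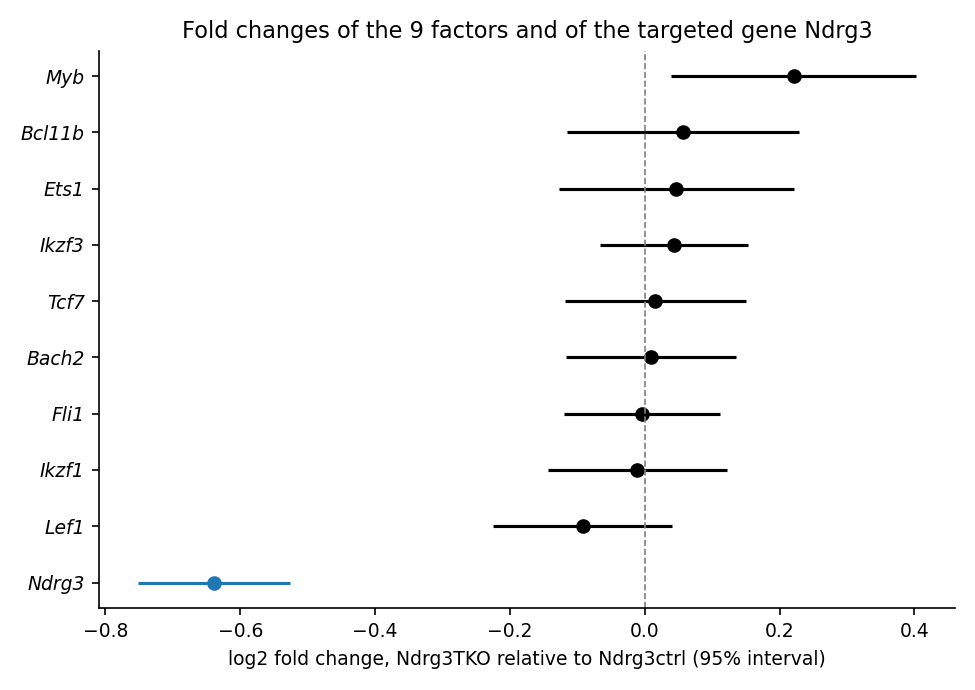
Log2 fold change of each factor (black) and of the targeted gene Ndrg3 (blue), Ndrg3TKO relative to Ndrg3ctrl, with 95% intervals from the edgeR fit (n = 4 per group). Intervals of 8 factors include 0, that of Myb runs from 0.039 to 0.40 and that of Ndrg3 lies well below 0 at −0.75 to −0.53.

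Among the 9 factors 6 fold changes were positive and 3 negative, and with 1 library left out between 4 (without Ndrg3TKO replicate 1) and 8 were positive. The median was 0.016, against −0.0033 over all tested genes, and the median size without regard to sign was 0.043, against 0.088 over all tested genes and 0.055 over the 4532 genes of at least 50 CPM. Spread between mice of one group was below the median of those 4532 genes, 0.081 on the log2 scale, in 5 of the 9 factors. Ikzf3 had the smallest SD, 0.049, and Myb the largest, 0.153. Ndrg3ctrl replicate 3 was the lowest library in 4 of the 9, and Ndrg3ctrl replicate 1 and Ndrg3TKO replicate 1 were each the highest in 3.

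Counts from inside the introns of these genes varied much more than those of the genes. Annotated features that lie within introns of Lef1, Bach2, Ikzf3 and Fli1 on the same strand, 9 in all, had 13.3, 10.2, 21.4 and 20.9 counts per 1000 counts of the 9 factors in Ndrg3ctrl, and 19.7, 13.1, 18.5 and 23.1 in Ndrg3TKO. The highest library was 2.26-fold above the lowest, and the 3 lowest were Ndrg3ctrl replicate 2, Ndrg3TKO replicate 2 and Ndrg3ctrl replicate 1. Means of 16.5 ± 5.54 and 18.6 ± 4.16 (SD, n = 4) differed by less than the spread between mice (p = 0.571, 2-sided exact permutation test). The largest counts were in Gm42449 in Lef1 (1015 ± 363 and 1178 ± 313, n = 4) and Gm37082 in Fli1 (630 ± 138 and 697 ± 104, n = 4). The part that unspliced RNA has in the factors' counts was not tested. Antisense genes over Bach2 and Myb that share exonic bases with them, Bach2os and Gm26577, were below 5 normalized counts in every library.

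Other transcription factors of T cells gave 1 call. Of 10 such factors, Gata3, which directs CD4 lineage choice and T cell specification, was called higher in Ndrg3TKO, where 1.15% of all tested genes were called, and the other 9 did not pass. In this list 9 fold changes were positive and 1 negative, with a median of 0.074. An unadjusted p under 0.05 was found in 5 of 10, beside 10.9% of all tested genes. With 1 library left out it was found in 2 (without Ndrg3TKO replicate 1) to 4 of 10. Gata3 was at 1799, 1725, 1643 and 1618 in Ndrg3ctrl and at 2601, 2331, 2380 and 2206 in Ndrg3TKO. All 4 Ndrg3TKO libraries were above all controls, as in 3.44% of tested genes, and the log2 fold change was 0.49 ± 0.0594 (SE) with an adjusted p of 0.000525. Satb1 and Foxo1, the 2 most abundant of this list, had log2 fold changes of 0.022 (adjusted p = 0.945) and 0.15 (adjusted p = 0.342).

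Family relatives of the 9 factors and their cofactors gave no call. Of 11 relatives 9 were tested, with a median log2 fold change of −0.13, 7 negative and 2 positive. Ikzf2 (HELIOS), among the 2 most abundant, had 15536 ± 1191 and 18079 ± 2065 normalized counts (SD, n = 4 each), a log2 fold change of 0.22 (adjusted p = 0.309), and Ets2, the next in abundance, had 2404 and 2513 in the mean and 0.064 (adjusted p = 0.77). Ikzf4 was picked after its values were seen, as the relative with the smallest unadjusted p, and had −0.17 (adjusted p = 0.283). All 20 cofactors were tested, with a median of 0.034. Chd4, the remodelling ATPase of the NuRD complex that IKAROS proteins recruit, had 0.071 (adjusted p = 0.756), and Tle3, a Groucho co-repressor that binds TCF1 and LEF1, had −0.045 (adjusted p = 0.855).

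Among genes known to be regulated by these factors 1 was called. Of 18 such genes 16 were tested, 13 with a negative fold change and 3 with a positive one, with a median of −0.22, and 11 had an unadjusted p under 0.05, where 10.9% of all tested genes did. Eomes, a T-box factor of effector and memory CD8 T cells, was called lower. It was at 413, 458, 364 and 528 in Ndrg3ctrl and at 151, 214, 202 and 171 in Ndrg3TKO, a log2 fold change of −1.26 ± 0.135 (SE) with an adjusted p of 0.00017. Cd8a and Cd8b1, the most abundant of the list, had −0.017 and −0.023 (adjusted p = 0.948 and 0.929). Among the tested genes besides Eomes, the groups did not overlap in Axin2, Id3 and Gzmb, which were picked after their values were seen. Over all tested genes, the Ndrg3TKO libraries all lay above the controls in 3.44% and all below them in 3.59%. The groups also did not overlap in Zbtb16, which had too few counts to be tested (4.23 to 9.70 normalized counts in Ndrg3ctrl, 0.909 to 2.67 in Ndrg3TKO). Axin2, a target of TCF1 and LEF1 with β-catenin, had 0.17 (adjusted p = 0.384) and Id3, an inhibitor of E proteins, had −0.27 (adjusted p = 0.0716). Gzmb, the gene of the cytotoxic protease granzyme B, had low counts in both groups, 15.9 to 27.0 in Ndrg3ctrl and 5.76 to 15.4 in Ndrg3TKO, and −0.88 (adjusted p = 0.372). Without Ndrg3ctrl replicate 2 or without Ndrg3TKO replicate 1, 7 of the 16 had an unadjusted p under 0.05, and without Ndrg3ctrl replicate 3 or without Ndrg3TKO replicate 2, 2 were called lower. Of 8 effector factors, Eomes was the one called, and Id2 and Irf4, the most abundant, had −0.34 (adjusted p = 0.453) and 0.014 (adjusted p = 0.973).

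**Figure D5:**
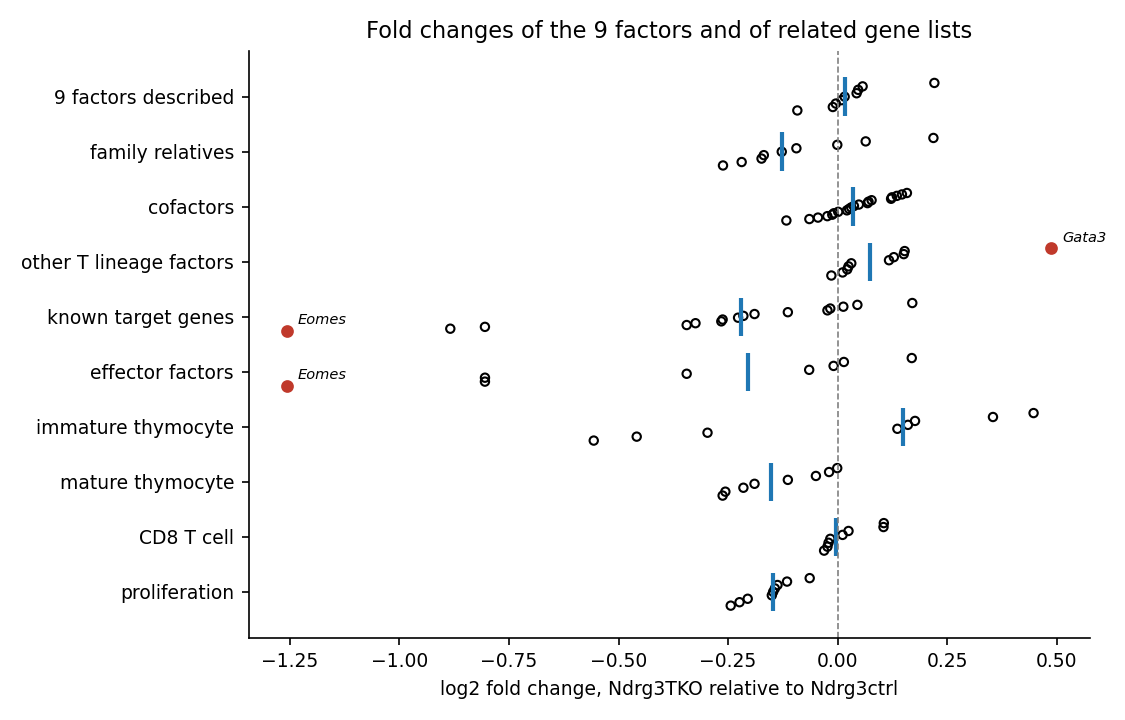
Log2 fold change of each tested gene in the 9 factors and in related lists, Ndrg3TKO relative to Ndrg3ctrl, with called genes in red and named, other genes as open points and list medians as blue bars. The 9 factors lie between −0.092 and 0.22, Gata3 stands at 0.49 and Eomes, which is in 2 lists, at −1.26.

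Markers of other stages and cells were read beside these values. All 8 markers of mature thymocytes were tested and all 8 had a negative fold change, with a median of −0.15 and none called, and without Ndrg3ctrl replicate 2 there were 5 negative of 8. Their most abundant genes, H2-K1 and H2-D1, had −0.00094 and −0.050 (adjusted p = 0.999 and 0.868), and their summed level was 4292 to 4929 CPM in Ndrg3ctrl and 4086 to 4523 CPM in Ndrg3TKO. Of 10 markers of immature thymocytes 8 were tested, 5 positive and 3 negative, with a median of 0.15 and none called, and their summed level was 611 to 666 CPM and 681 to 792 CPM. Without Ndrg3ctrl replicate 1, 7 were positive and 1 was called higher, and without Ndrg3ctrl replicate 4 the median was 0.089. Ccr9 and Cd69, the most abundant, had 0.18 (adjusted p = 0.216) and 0.14 (adjusted p = 0.638). All 9 proliferation genes were negative with none called and a median of −0.15, at a summed 1269 to 1360 CPM and 949 to 1304 CPM, and Ndrg3TKO replicate 3 stood apart. Mki67 was at 6943, 7735, 7604 and 7660 in Ndrg3ctrl and at 7434, 7261, 4787 and 7550 in Ndrg3TKO, and Top2a was at 9982, 11269, 6563 and 9829 in Ndrg3TKO against 10071 to 11432 in Ndrg3ctrl. Without Ndrg3TKO replicate 3 the median was −0.067 and 7 of 9 were negative, with Ccnb1 at 0.038 and Birc5 at 0.096, while the log2 fold changes of Myb, Gata3 and Eomes were 0.21, 0.49 and −1.30. The part of stage composition in the values of the 9 factors, Gata3 and Eomes was not tested.

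Markers of cells that the sort should remove were low. B cell markers summed to 11.3 to 13.7 CPM in Ndrg3ctrl and 8.79 to 9.71 CPM in Ndrg3TKO, nearly all from Cd79b, with Ms4a1 at 0 in every library and 1 of 6 markers tested. Myeloid markers summed to 17.8 to 24.1 CPM and 19.7 to 23.1 CPM, with 1 of 6, Cst3, tested. NK and γδ T cell markers summed to 11.2 to 14.5 CPM and 11.8 to 16.1 CPM, with Ncr1 at 0 and 2 of 6 tested. Of these Klrb1c was called higher (8.83 ± 6.71 and 51.4 ± 8.66 normalized counts, log2 fold change 2.62, adjusted p = 0.00149), and Trdc had −0.031 (adjusted p = 0.954). The other markers, not tested, did not follow Klrb1c. Sox13 was at 8.27 ± 1.70 and 4.84 ± 3.53 normalized counts, Zbtb16 at 7.09 ± 2.49 and 1.61 ± 0.84, and Blk at 2.31 ± 1.37 and 2.62 ± 2.90. Thymic epithelial markers stayed at or below 2.94 CPM with 1 of 5, Epcam, tested, and erythroid markers at or below 0.233 CPM with none of 6 tested.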

How the data were processed

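RNA of 8 sorted CD8SP samples (4 per group, numbered replicates 1 to 4) had been sequenced from stranded total RNA libraries. After trimming by cutadapt, the authors used STAR with GRCm38.p4 and featureCounts, and they deposited raw read counts per gene with no normalization. Strand setting and handling of reads with several matches are not given in the sources used here. Symbols and exonic lengths came from GENCODE M21, which matched 98.5% of the rows. Genes passing filterByExpr were scaled by TMM and tested with edgeR 4.0.16 (R 4.3.3, limma 3.58.1) by glmQLFit (robust) and glmQLFTest. Standard errors and intervals came from the F statistic and its degrees of freedom. Single values were compared by 2-sided exact permutation tests over 70 splits. The 9 factors, the gene lists and the rule for named genes (all factors, called list members or else the 2 most abundant of a list, and overlapping genes) were chosen with earlier results of these data known. No replicate pair agreed within sampling noise. Reads carried no molecular identifiers, so PCR copies were counted too. On counts simulated for this comparison (3 runs, 14618 genes tested, 200 changed), 99.0% of log2 changes of 1 and 21.3% of those of 0.25 were recovered, with 6.95% of calls false.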

Additional observations from a re-analysis of the deposited data

How the results depend on the processing

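Over other settings (DESeq2 1.42.0, limma-voom, RLE or upper-quartile factors, no filter, at least 10 counts in every library, a replicate block, Y-linked counts as a covariate, libraries without Y-linked counts, each library left out), 140 of 153 values of the 9 factors kept their direction and side of the threshold. Myb passed with the replicate block (log2 fold change 0.22, adjusted p = 0.00373) and with the Y-linked covariate (0.28, adjusted p = 0.0286), and in each of these fits 1 of the 9 factors was called. Gm43352 passed with the block as well (−0.26, adjusted p = 0.0261). The replicate numbers share no stated source, and deviations of same-numbered libraries correlated across genes by 0.29, 0.548, −0.105 and 0.455. The libraries were therefore not treated as paired. However, 3 of these 4 values exceeded all 12 of differently numbered libraries, and 6 of 8 libraries correlated best with their own number. The replicate 3 libraries, at −0.105, also differed in whether Y-linked genes were counted (0.0681 CPM in Ndrg3ctrl, 416 CPM in Ndrg3TKO). Libraries of the other numbers did not differ in this. In same-numbered libraries, Tcf7 over Lef1 and Ets1 over Fli1 were higher in Ndrg3TKO in 4 of 4 and Ikzf1 over Ikzf3 lower in 4 of 4, each with a blocked exact permutation p of 0.125, the smallest that 4 pairs allow. The block changed no other call of the 9 factors. Fli1 was at 0.0050 with upper-quartile factors. With each library left out in turn, log2 fold changes ran from −0.017 to 0.035 for Tcf7, −0.0036 to 0.11 for Bcl11b, −0.038 to 0.044 for Bach2, −0.034 to 0.011 for Ikzf1, −0.033 to 0.030 for Fli1 and 0.16 to 0.29 for Myb, with none called, and those of Gata3 and Eomes remained past the threshold in every setting (adjusted p at most 0.00583 and 0.00114). Genes called over the whole table numbered 309 with DESeq2, 274 without a filter, 800 with the replicate block, 437 with the Y-linked covariate, 92 in libraries without Y-linked counts, and 90 to 158 with 1 library left out, against 168. With 4 mice per group, a log2 change of 0.25 was mostly missed in simulated counts, so a difference of that size in these factors would often not be called.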
